A study of Mus musculus with 2 samples.

Results

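T lymphocytes and natural killer (NK) cells are among the lymphocytes that patrol the vaginal wall. Their transcripts were examined here on arrays of whole vaginal tissue from WT mice and from *Fbln5-/-* mice, which lack fibulin-5, an elastic fiber protein. The genes were chosen by name, as 35 genes used to recognize T and NK cells, and a probe set was counted for a gene only where the annotation lists that gene alone. Of the 35, 34 had at least 1 such probe set and together they had 52, among 18193 genes listed in this way on the array. *Lck* had no probe set listed to it alone.

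Each genotype was measured on 1 array, from vagina of female mice labelled C57/Bl6 and 6 months old. Both groups were ovariectomized and given estradiol at 50 µg/kg/d for 3 d, so every value below is from estrogen-treated tissue. The labels give 11 d for the ovariectomy, the series description gives 2 weeks, and the methods start estradiol 2 weeks after it. The methods name 2 animals per group for the arrays, and whether their RNA was pooled is not stated. Without a replicate, every value below is a description of these arrays, with neither a p-value nor an error between animals. The brighter probe set of *Fbln5* itself read 410.4 for WT and 30.4 for *Fbln5-/-*, and whether that probe set lies in the deleted part is not known. Keratins and collagens of the vaginal wall were bright on both arrays, *Krt5* at 16102 and 16059 and *Col1a2* at 16036 and 17183.

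T cells recognize antigen through the T cell receptor, whose signal is passed into the cell by the CD3 chains and by *Cd247* (the zeta chain). The kinase *Lck* phosphorylates these chains, *Zap70* binds to them, and *Zap70* in turn phosphorylates the adaptor *Lat*. CD4 and CD8 are coreceptors that mark helper and cytotoxic T cells. NK cells and cytotoxic T cells kill with perforin (*Prf1*) and granzymes, and NK cells choose their targets through receptors such as *Klrd1* (CD94), *Klrk1* (NKG2D) and *Ncr1* (NKp46). In the vagina these cells are a small part of a tissue made mostly of stratified epithelium, smooth muscle and fibroblasts. In such a bulk sample, fewer T or NK cells and less RNA per cell cannot be told apart.

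Most of the T and NK cell genes were dim on both arrays. Signals are deposited intensities scaled to a common median. The limit of 100 is taken from the study, which left out average readings under it in both groups. The study also kept only probe sets called present or marginal, and those calls were not used here. The genes past the limit may therefore differ from those the study kept. Of the 34 listed genes, 24 were under 100 on both arrays, 8 were at 100 or more on both, and 2 reached it with WT only. Thus 10 of 34 (29.4%) passed the limit, against 65.6% of the 18193 listed genes. By probe set, 12 of 52 (23.1%) passed it, against 56.2% of all probe sets listed to 1 gene. WT alone reached 100 at 4 of the 52 (7.69%) and *Fbln5-/-* alone at none, against 3.83% and 3.11% of all probe sets listed to 1 gene.

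Of the 10 genes past the limit, 2 were lower in *Fbln5-/-* by 2-fold or more, *Zap70* and *Klrd1*, and none was higher by that much. Among all 11934 genes past the limit, 4.77% were lower and 7.21% higher by 2-fold or more. The median log2 ratio of *Fbln5-/-* over WT was -0.07 over the 10 genes and 0.16 over all genes past the limit. With signals under 100 set to 100 (a floor of 100), *Zap70* was the only one of the 10 past 2-fold, beside 3.95% lower and 5.80% higher among all genes. When the arrays were instead scaled to a median ratio of 1 over the probe sets that both detected at 100, the medians became -0.18 and 0.05, and the split over all genes changed from 861 higher and 569 lower to 679 and 698. The 2 lower T and NK cell genes were the same under that scaling. With 2 genes among 10, a share is set by single genes, and *Klrd1* and *Cd3e* passed the limit through the WT array alone, so these 2 could have differed only downward.

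**Figure D1:**
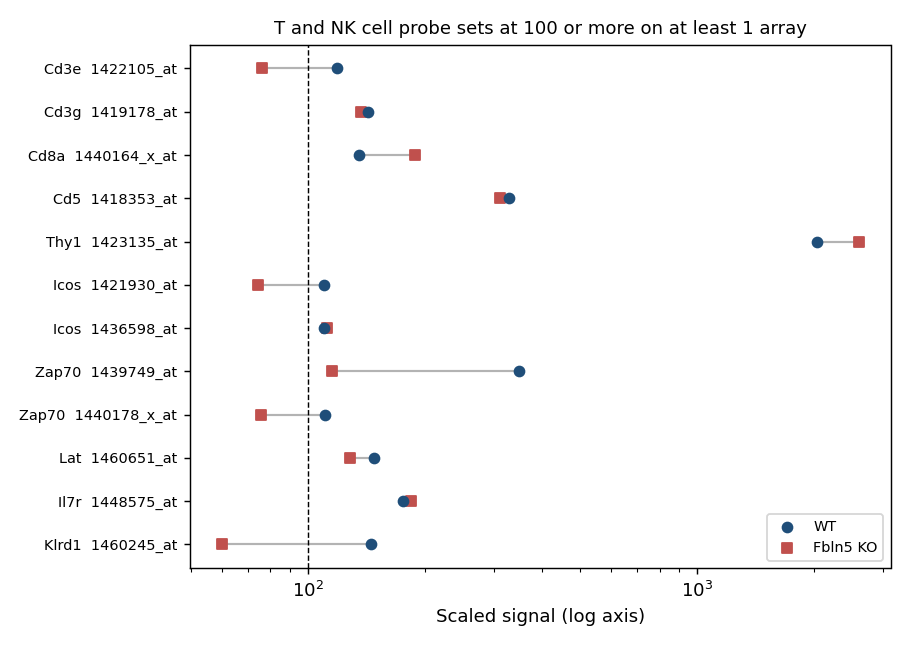
Scaled signal (log axis) of the 12 probe sets of T and NK cell genes at 100 or more on at least 1 array, with WT as circles and *Fbln5-/-* as squares, 1 array each, and a dashed line at 100. *Zap70* (348.7 and 115.4) and *Klrd1* (144.8 and 59.95) have the widest gaps, and *Cd3g*, *Cd5* and *Il7r* nearly coincide.

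The receptor complex itself gave low signals. *Cd3g*, the gamma chain of CD3, had 142.9 for WT and 136.5 for *Fbln5-/-* (log2 ratio -0.07). *Cd3e*, the epsilon chain on which the receptor's assembly depends, had 118.8 and 76.1, at least 1.19-fold lower when the second signal is taken as 100. *Cd3d*, the delta chain, had 68.9 and 19.8, both under 100, so no fold is given. All 3 CD3 chains thus had the lower signal on the *Fbln5-/-* array, with sums of 330.6 and 232.4, but the gamma chain differed little and the delta chain was too dim to compare. The order was the same for each chain under the 4 other scalings tried. The 4 probe sets of *Cd247* were all under 100, the brightest at 47.3 and 54.2. Of the other 3, 2 were lower on the *Fbln5-/-* array and 1 was higher (4.28 and 38.7), so probe sets of 1 gene went opposite ways at this level.

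Coreceptor signals were near or under the limit too. *Cd8a*, the alpha chain of CD8, had 135.5 and 188.3 at its brightest probe set (log2 ratio 0.48). That probe set belongs to a class (_x_at) whose probes can match other transcripts. The other 4 *Cd8a* probe sets lay between 13.8 and 61.8 for WT and between 18.5 and 52.0 for *Fbln5-/-*. *Cd8b1*, the beta chain, had 4.96 and 5.04. *Cd4* had 24.02 and 29.41 at one probe set and 25.2 and 4.11 at the other. Of the 8 coreceptor probe sets, a single one of *Cd8a* was thus at 100 or more.

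*Zap70*, the kinase that binds phosphorylated CD3 and zeta chains, had the widest measured gap of the 34 genes. Its brightest probe set had 348.7 for WT and 115.4 for *Fbln5-/-*, with a log2 ratio of -1.60, or 3.02-fold lower. A second, also an _x_at probe set, had 110.5 and 75.7, at least 1.10-fold lower, and the dimmest had 66.9 and 16.1. All 3 probe sets were lower on the *Fbln5-/-* array, and the difference could be measured on both sides at 1 of them. The mean log2 ratio over the 2 probe sets past the limit was -1.07. *Lat*, the adaptor that *Zap70* phosphorylates, had 147.3 and 128.2 (log2 ratio -0.20). The remaining signalling genes were under 100 on both arrays. *Trat1*, an adaptor bound to the receptor complex, had 21.0 and 8.12, and *Sh2d1a*, the SAP adaptor, had 5.25 and 3.60.

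Control probe sets along *Gapdh* and *Actb*, which show how far the labelled copy of an RNA reaches toward its 5′ end, differed between the arrays and stand beside every lower signal. The control probe set at the 5′ end of *Gapdh* had 17262 for WT and 794.7 for *Fbln5-/-* (log2 ratio -4.44), while that at the 3′ end had 13329 and 13829 (0.05). For *Actb* the log2 ratio was -1.87 at the 5′ end and -0.18 at the 3′ end. The control probe sets in the middle were lower on the *Fbln5-/-* array as well, with log2 ratios of -1.16 for *Gapdh* and -1.22 for *Actb*. Where the probe sets of *Zap70*, *Klrd1* and the CD3 genes lie along their transcripts was not analysed, and the part of RNA length in their lower signals was not tested.

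*Klrd1*, which pairs with NKG2 chains to form an NK cell receptor for a nonclassical MHC molecule, was the other gene past 2-fold. Its probe set had 144.8 and 59.95, with a log2 ratio of -1.27 as measured and at least 1.45-fold lower with the second signal taken as 100. The activating receptors were under 100 on both arrays. *Klrk1* had 47.0 and 36.7, and *Ncr1*, the receptor most restricted to NK cells, had 34.1 and 29.0. The 3 receptors had the higher signal on the WT array, also under the 4 other scalings. Of 7 further killer cell lectin-like receptor genes on a wider list, all were under 100 on both arrays. At their brightest probe sets 6 had the higher signal on the *Fbln5-/-* array and 1, *Klra8*, on the WT array. A second probe set turned the order for *Klrc1* (18.2 and 3.39) and *Klra7* (6.42 and 1.85), so no direction is read at these levels. *Cd244a*, an NK cell receptor outside this family, passed the limit with WT only and was lower in *Fbln5-/-* at both probe sets (125.6 and 62.3, 102.0 and 5.66).

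Genes of the cytotoxic granule were all under 100 on both arrays. *Gzma* (granzyme A) had 26.5 and 67.6, *Gzmb* (granzyme B) had 30.05 and 32.39, and *Nkg7*, a granule membrane protein, had 19.4 and 47.5. *Prf1*, the pore-forming protein, had 45.2 and 81.3 at one probe set but 61.3 and 36.0 at the other. The 4 genes had the higher signal on the *Fbln5-/-* array at their brightest probe sets, but *Gzmb* differed little and *Prf1* turned with the probe set. Granzymes of the wider list, also under 100 on both arrays, mostly went the other way. *Gzmk* had 41.3 and 23.7, *Gzmm* 65.0 and 57.3, *Gzme* 3.31 and 1.23 and *Gzmc* 1.26 and 1.13, while *Gzmd* had 0.292 and 7.51 at its brighter probe set. Elsewhere on that list, *Ctsw* (cathepsin W) had 57.9 and 40.9 and *Cst7* (cystatin F) 39.1 and 44.7. Granule genes thus had no common direction, at levels where no fold is given.

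Of the adhesion and surface proteins, *Thy1* and *Cd5* were at 100 or more on both arrays. *Thy1*, a membrane glycoprotein of mouse T cells that fibroblasts and neurons carry as well, had 2033 for WT and 2599 for *Fbln5-/-* (log2 ratio 0.35). The sign of the summed difference turns on this gene, because the signals of the 34 genes added up to 4384 for WT and 4598 for *Fbln5-/-* with *Thy1* and to 2351 and 1998 without it. *Cd5*, an inhibitory receptor of T cells and of a subset of B cells, had 327.5 and 310.8 (log2 ratio -0.08). The other 3 members of this class were under 100. *Cd2*, which binds CD48, had 32.9 and 20.5, *Cd6*, a relative of *Cd5*, had 10.7 and 6.17, and *Cd7*, an immunoglobulin family protein of T and NK cells, had 10.8 and 6.27.

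Of the costimulatory and checkpoint receptors, *Icos*, the inducible costimulator, lay at the limit. Its brightest probe set had 109.9 and 112.1, another had 109.8 and 74.5, and the other had 41.4 and 31.9. *Cd28*, the main costimulatory receptor, was at most 31.1 and 36.9, *Ctla4*, its inhibitory counterpart, had 33.3 and 32.7, and *Cd27*, a costimulator of the TNF receptor family, had 17.7 and 4.83. Among cytokine receptors, *Il7r*, which carries the survival signal of resting T cells, had 175.2 and 183.5 at its brighter probe set and 41.8 and 22.1 at the other. The log2 ratio of *Il7r* (0.07) and of *Icos* (0.03) turned negative on the deposited scale (-0.01 and -0.05). The IL-2 receptor chains were dim. *Il2ra*, the alpha chain of activated and regulatory T cells, had 37.3 and 73.1 at one probe set and 39.2 and 24.2 at the other. *Il2rb*, the beta chain shared with the IL-15 receptor, had 44.1 and 18.6 at one and 21.6 and 8.74 at the other.

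The genes that define T cell subsets were under 100 on both arrays. *Foxp3*, the regulatory T cell factor, had 29.9 and 18.7, and *Tbx21* (T-bet), the factor of type 1 responses, had 2.92 and 6.79. *Ifng*, the effector cytokine of type 1 T cells and NK cells, had 2.33 and 13.7. *Il17a*, made by type 17 and by many gamma delta T cells, had 73.5 and 34.7. No subset could therefore be compared between the genotypes. Over the 24 genes under 100 on both arrays, 13 had the higher signal for WT and 11 for *Fbln5-/-* (12 and 12 after quantile normalization). Their 33 probe sets ranged from 2.33 to 73.5 for WT (median 25.2) and from 2.16 to 81.3 for *Fbln5-/-* (median 20.5).

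**Figure D2:**
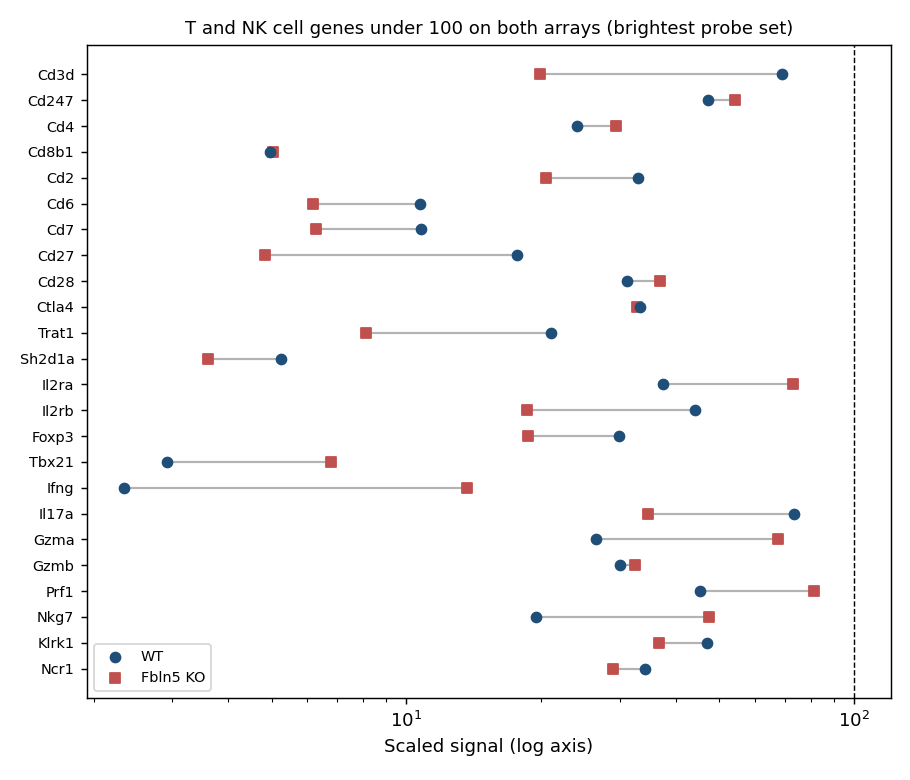
Scaled signal (log axis) of the 24 T and NK cell genes under 100 on both arrays, at the brightest probe set of each, with WT as circles and *Fbln5-/-* as squares, 1 array each. Genes lie on both sides, 13 of the 24 being higher for WT and 11 for *Fbln5-/-*, and a second probe set can turn the order, as for *Prf1* (45.2 and 81.3 here, 61.3 and 36.0 at the other).

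Promoters of these genes were searched for short motifs, which the choice by name did not use. Promoter sequence from RefSeq (GRCm38.p6), taken as the 250 bases before a transcript start, was at hand for 24 of the 35 genes. *Cd2*, *Cd4*, *Cd6*, *Cd7*, *Cd8b1*, *Cd28*, *Icos*, *Il2rb*, *Klrd1*, *Sh2d1a* and *Thy1* had no window, so the shares below do not cover them. The starts used for *Trat1* and *Cd247* lay 38485 and 8729 bases from the outermost start listed for the gene. Both strands were searched for cores bound by factor families known from lymphocyte development. The ETS core was taken as AGGAAG. The letters taken for RUNX proteins were TGTGGT. For E-box proteins the search used CAGNTG, with N standing for any base. The GATA core was read as AGATAA. In that order, at least 1 match was found in 13 (54.2%), 9 (37.5%), 19 (79.2%) and 1 (4.17%) of the 24 windows. Over 32536 windows of all genes, which include alternative starts, the shares were 29.6%, 14.0%, 44.8% and 9.97%. Base composition differs between windows and was not matched, and a match is a run of letters and not a shown binding site. The windows of 3 genes are printed 5′ to 3′ with matches in capitals, no match overlapping another: *Zap70*, the gene with the widest measured gap (chr1:36761548-36761797, + strand), *Cd3g*, the receptor chain with close signals (chr9:44980432-44980681, - strand), and *Gzmb*, a granule gene with TGTGGT at 2 places (chr14:56262335-56262584, - strand).
Zap70: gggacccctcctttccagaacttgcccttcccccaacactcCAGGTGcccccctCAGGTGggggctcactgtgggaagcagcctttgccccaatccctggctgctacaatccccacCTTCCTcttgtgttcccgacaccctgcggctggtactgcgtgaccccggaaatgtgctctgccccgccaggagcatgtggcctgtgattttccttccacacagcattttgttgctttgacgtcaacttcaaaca
Cd3g: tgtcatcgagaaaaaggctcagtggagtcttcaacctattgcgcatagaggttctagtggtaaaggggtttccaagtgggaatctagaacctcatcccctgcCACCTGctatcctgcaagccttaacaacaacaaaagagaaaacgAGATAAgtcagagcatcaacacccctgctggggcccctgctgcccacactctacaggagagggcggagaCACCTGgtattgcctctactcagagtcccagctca
Gzmb: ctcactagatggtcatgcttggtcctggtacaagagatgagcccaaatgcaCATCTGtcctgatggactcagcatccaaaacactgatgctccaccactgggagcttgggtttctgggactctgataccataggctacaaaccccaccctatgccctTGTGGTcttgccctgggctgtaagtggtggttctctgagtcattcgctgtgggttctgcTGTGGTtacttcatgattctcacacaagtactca
*Zap70* holds 2 E-box matches and 1 ETS match, *Cd3g* 2 E-box matches and the 1 GATA match among the 24 windows, and *Gzmb* 2 RUNX matches and 1 E-box match. The signals of these 3 genes on the WT and *Fbln5-/-* arrays were 348.7 and 115.4, 142.9 and 136.5, and 30.05 and 32.39.

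A wider list of 87 T and NK cell genes outside the 35 had 66 listed on the array, of which 46 were under 100 on both arrays and 20 passed the limit. At the brightest probe set of each of the 20, 13 had the higher signal on the *Fbln5-/-* array and 7 on the WT array. As measured, *Cxcr6* and *Cd244a* were lower by 2-fold or more, no gene of the list was higher by that much, and the median log2 ratio was 0.31. Over all genes past the limit, 4.77% were lower and 7.21% higher, and the median was 0.16. The 13 higher genes include *Ptpn22*, *Fyb*, *Lcp2* and *Vav1*, counted here as shared signalling genes, with log2 ratios of 0.45, 0.59, 0.60 and 0.57. Which cells made them was not tested. With signals under 100 set to 100, *Cxcr6* was the 1 gene past 2-fold and the median was 0.18, against 0.15 over all genes. *Cxcr6*, a chemokine receptor of tissue-resident T and NK cells, had 380.5 and 139.4 at one probe set (2.73-fold lower) and 203.0 and 81.8 at the other (at least 2.03-fold lower). *Cd244a*, the 2B4 receptor of NK cells, had 125.6 and 62.3 at its brighter probe set, at least 1.26-fold lower. *Trgv4*, a variable segment of the gamma T cell receptor chain, had 285.4 and 231.9 at its brightest probe set, 312.9 and 139.9 at a second, and 11.96 and 2.98 at the dimmest, and its probes may match related segments. At their brightest probe sets the 4 brightest genes of the list differed by less than 2-fold. Their log2 ratios were 0.03 for *Tyrobp*, 0.50 for *Bcl11b*, -0.12 for *Gimap4* and 0.45 for *Il18r1*. The direction of *Bcl11b* turned with the probe set, with log2 ratios of 0.49, -0.86 and -0.90 at the others, all at 100 or more on both arrays. *Tyrobp* (1365 and 1398) and *Bcl11b* (1102 and 1555) are made by myeloid cells and by keratinocytes as well.

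Genes for signals that reach T and NK cells were split. The shares over all genes past the limit were 4.77% lower and 7.21% higher by 2-fold or more (3.95% and 5.80% with the floor of 100). The list of cytokine and cytokine receptor genes held *Il2*, *Il7*, *Il15*, *Il15ra*, *Il18*, *Il12a*, *Il12b*, *Il23a*, *Il6* and *Tgfb1*. Of these 10 genes, 5 passed the limit, 1 being higher and 1 lower by 2-fold or more (0 and 1 with the floor of 100). *Tgfb1*, which restrains T cells, had 2092 and 560.0 at its brighter probe set, 3.74-fold lower. *Il15ra*, the receptor chain that presents IL-15, had 13.4 and 109.0 and so was at least 1.09-fold higher. *Il15*, the survival cytokine of NK cells, had 177.7 and 101.0 (log2 ratio -0.82), *Il7* had 96.2 and 140.0 (at least 1.40-fold higher), and *Il18*, which induces interferon gamma, had 661.5 and 1295 (0.97). Of 9 listed genes for NKG2D and checkpoint ligands, 3 passed the limit, none being higher and 1 lower by 2-fold or more. That gene, *H60c*, an epithelial ligand of the NKG2D receptor, had 2093 and 462.9, 4.52-fold lower at its single probe set. *Icosl*, the ligand of ICOS, had 215.9 and 245.4 (log2 ratio 0.18), and *Cd48*, which binds CD2 and 2B4, had 153.2 and 214.6 (0.49). Among 18 listed genes of the interferon gamma response and MHC, 14 passed the limit and 1 of these, *Gbp2*, was higher by 2-fold or more, with a median log2 ratio of 0.26. At their brightest probe sets the 4 brightest genes of that list, *Cd74*, *H2-Aa*, *H2-Eb1* and *H2-Ab1*, all of MHC class II antigen presentation, had log2 ratios of 0.02, 0.05, 0.18 and 0.12. Other probe sets of these genes differed from that. *H2-Ab1* had 2412 and 2619 at its brightest, but 1577 and 672.8 (2.34-fold lower) and 902.1 and 428.4 (2.11-fold lower) at the other 2. *H2-Aa* had log2 ratios of -0.66, 0.38 and 0.53 at its other 3 probe sets.

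Markers of other leukocytes are given beside these values, as whole lists at the brightest probe set of each gene. Over all genes past the limit, 4.77% were lower and 7.21% higher by 2-fold or more (3.95% and 5.80% with the floor of 100). Of 17 pan-leukocyte genes, 16 passed the limit and 2 of these were lower by 2-fold or more, none being higher, with summed signals of 10143 and 10063. The lower genes were *Coro1a*, with 1274 and 276.8 at its brightest probe set but 540.7 and 512.6 at another, and *Ptprcap*, a lymphocyte membrane protein, with 204.7 and 82.3, at least 2.05-fold lower. The reverse was seen too. *Lcp1* had 883.1 and 1256 at its brightest probe set but 585.6 and 285.5 at the other (2.05-fold lower). *Laptm5* had 947.3 and 1101 at its brightest but 1309 and 641.3 at another (2.04-fold lower), and its dimmer ones went both ways. The count and the sums of this list thus depend on the probe set taken. Of 13 listed B and plasma cell genes, 7 passed and 4 of these were higher by 2-fold or more (3 with the floor of 100), none being lower, and the sums were 11906 and 32263. Of these sums, *Xbp1* held 9306 and 10100. *Ighm* had 1519 and 13078 at its brightest probe set but 236.3 and 44.3 at another, while its remaining probe sets past the limit were higher on the *Fbln5-/-* array. *Jchain*, the joining chain of secreted antibody, had 552.9 and 7996. Macrophage and dendritic cell genes went both ways, 3 of 17 being higher and 3 lower, with sums of 23614 and 24055. The higher genes were *Cd14*, *Mrc1* and *Cd163*, and the lower genes *C1qa*, *Itgam* and *Cd209a*. *C1qa* had 1847 and 184.3, while *C1qb* had 1875 and 2065 at its brightest probe set. Neutrophil genes were split as well, with 3 of 8 higher and 3 lower (1 lower with the floor of 100). The brightest were *Ltf* (14452 and 15164), *Il1r2* (8791 and 2446), *S100a8* (1198 and 4372) and *Lcn2* (1076 and 2440). *Mpo*, *Elane* and *Cxcr2* of the same list were under 100 on both arrays, and which cells made these transcripts was not tested. None of 5 mast cell genes past the limit differed 2-fold. With 1 array per genotype no test of a difference between these lists and the T and NK cell genes could be made.

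**Figure D3:**
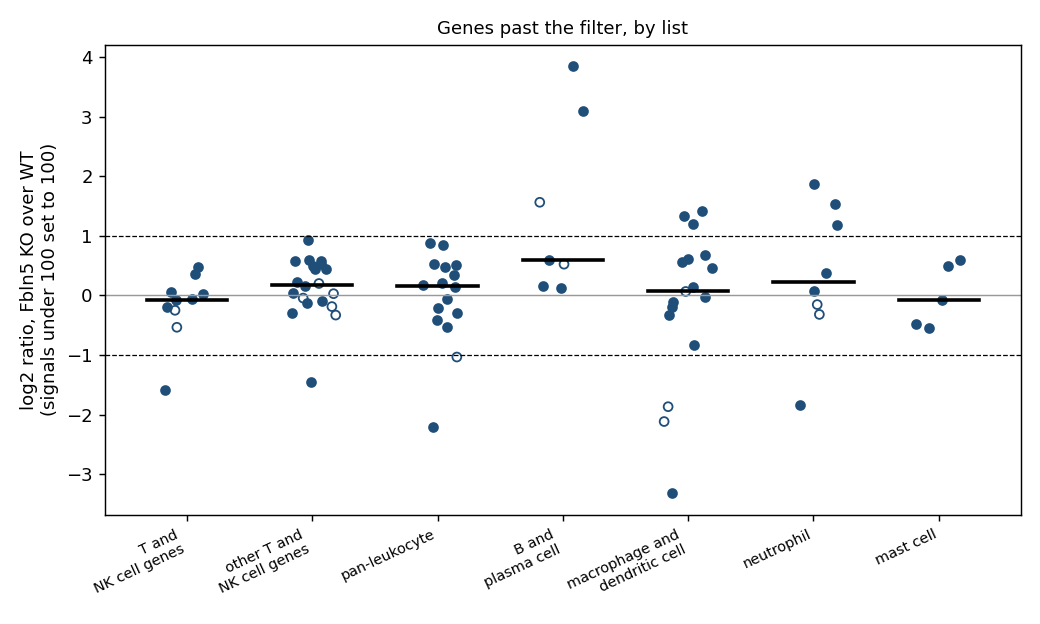
Ratio of the *Fbln5-/-* to the WT signal, on a log2 axis and from 1 array per genotype, for genes at 100 or more on at least 1 array, with signals under 100 set to 100. A filled circle is a gene that reached 100 on each array and an open circle a bound. The black bar gives the median of a list and the dashed lines stand at 2-fold. T and NK cell genes (median -0.07) lie between the dashed lines except *Zap70*, and B and plasma cell genes (median 0.60) reach 3.85 with *Jchain*.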

How the data were processed

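RNA from vagina of WT and *Fbln5-/-* mice was hybridized to Affymetrix mouse arrays, 1 array per genotype, with 45101 probe sets. The authors deposited MAS5 signal intensities on a linear scale (its version is not given in the sources used here), already scaled per array. Both arrays were scaled here to a common median, with factors of 0.972 and 1.03, after the 50th percentile normalization of the methods, and the 1 deposited WT value of 0 was replaced by 0.1. Detection calls were not used. Gene names came from the annotation of the platform, where 34945 probe sets had 1 gene symbol (controls left out), 932 several and 9211 none, and genes were named only from the first. Older symbols were matched through the GRCm38.p6 gene table.

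A gene was represented by its probe set of highest mean signal. Genes at 100 or more on at least 1 array were kept, and a 2-fold difference was counted, with no test. Where 1 array was under 100 the fold is a bound against 100. Where both were under it, no fold is given. All 35 genes are accounted for. Other lists, apart from the tissue checks, are given by counts, with up to 4 of their brightest genes and the T and NK cell genes that differed 2-fold, and a few more genes of the lists were named after their values were seen. The members and lists were chosen with earlier results of these data known. The steps were also run on simulated arrays, with planted changes above 2-fold and less noise than the spread between probe sets seen here. That run checked the code only and says nothing about the precision of these arrays. Precision is limited by the number of arrays. Python 3.11.15, numpy 2.4.6, pandas 2.3.3 and matplotlib 3.10.9 were used.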

Additional observations from a re-analysis of the deposited data

How the results depend on the processing

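Of 12 alternatives, scaling by the 75th percentile, by quantiles or to a median ratio of 1, and keeping the deposited scale, each left 2 T and NK cell genes at least 2-fold lower, *Klrd1* and *Zap70*, and none higher. So did averaging the probe sets of each gene and leaving out _x_at, _s_at and _a_at probe sets. Over all genes, these settings gave 521 to 835 lower and 679 to 801 higher, of 10187 to 11944 past the limit. The number lower was 1, *Zap70*, with at least 100 on both arrays, at least 200 on at least 1 array, signals under 100 set to 100, 32 added to each signal, or a 3-fold threshold. In that order, 395 of 10990, 473 of 10349, 471 of 11934, 469 of 11934 and 211 of 11934 of all genes were lower. Without a filter, 7 genes were lower and 4 higher, all but *Zap70* and *Klrd1* from signals under 100 on both arrays. The same setting gave 1535 lower and 2048 higher among all 18193 genes. The median log2 ratio stayed between -0.18 and -0.02. Of 100 values of single genes under these alternatives, 98 moved by less than 0.52 on the log2 scale, the pooled SD between probe sets of 1 gene (4114 genes). The exceptions were *Klrd1* at -0.53 with signals under 100 set to 100, and *Zap70* at -1.07 as the mean of its probe sets. Many of these values could not move, because a change of filter or the removal of other probe sets leaves the same signals in use. The count of 98 is therefore no measure of how stable the values are. No paired analysis was possible because each genotype has 1 array, and no replicate could be left out. Signals under 100 limit what can be seen, since 24 of the 34 genes lay there on both arrays.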
